A study of Homo sapiens with 9 samples.

Results

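Genes for granule proteins and for receptors and calcium-binding proteins of maturing myeloid cells were examined in HNT34 cells with reduced EVI1. A list of 10 genes was looked up by symbol in the deposited count table of 16612 genes, and 3 of them were found, namely CTSG, LYZ and S100A9. The other 7, MPO, ELANE, PRTN3, AZU1, CSF3R, CD14 and S100A8, are not listed in the table used here and were not analysed, and the other symbols known for them did not find them either. HNT34 is a human acute myeloid leukaemia (AML) line with high expression of EVI1, a transcription factor encoded by the MECOM gene. The cells carried a lentiviral RFP and puromycin-resistance vector. In the control group (NT) this vector expressed a non-targeting shRNA, and in the knockdown groups it expressed sh#16 or sh#87, which target EVI1. RNA was taken 3 days after puromycin selection. Each group has 3 RNA libraries, all 9 come from this single cell line, and no treatment other than transduction and selection is named. The labels do not say whether the 3 libraries of a group came from separate cultures, so p-values measure the spread between these libraries, which may be technical.

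Neutrophils and monocytes carry proteins made at different steps of their development. Promyelocytes fill the azurophil (primary) granules with myeloperoxidase (MPO) and with the serine proteases elastase (ELANE), proteinase 3 (PRTN3) and cathepsin G (CTSG), together with the inactive protease homologue azurocidin (AZU1) and with lysozyme (LYZ), which cleaves bacterial cell walls and is also made in later granules and in monocytes. S100A8 and S100A9 form the cytosolic calcium-binding complex calprotectin of late myeloid cells, CSF3R is the G-CSF receptor, and CD14 is the co-receptor for bacterial lipopolysaccharide (LPS) on monocytes.

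CTSG lies at chr14:24573518-24576250 and has 5 exons, LYZ lies at chr12:69348381-69354234 and has 4 exons, and S100A9 lies at chr1:153357854-153361023 and has 3 exons (RefSeq, GRCh38.p14). The bases just before the start sites are shown because factors whose genes are described later have well-known recognition letters. Each of the 3 genes with a RefSeq promoter sequence is shown, which leaves out LYZ. RefSeq sequences of 250 bases were matched for 2 of the 3 genes, CTSG at chr14:24576251-24576500 (minus strand) and S100A9 at chr1:153357604-153357853 (plus strand). They are written 5′ to 3′ along the gene. Capitals mark matches to the letters searched on both strands.
CTSG: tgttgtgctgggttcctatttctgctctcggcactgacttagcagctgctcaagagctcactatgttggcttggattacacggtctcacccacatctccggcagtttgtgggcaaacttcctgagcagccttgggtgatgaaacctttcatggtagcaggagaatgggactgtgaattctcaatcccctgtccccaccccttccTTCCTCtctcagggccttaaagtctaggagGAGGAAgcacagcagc
S100A9: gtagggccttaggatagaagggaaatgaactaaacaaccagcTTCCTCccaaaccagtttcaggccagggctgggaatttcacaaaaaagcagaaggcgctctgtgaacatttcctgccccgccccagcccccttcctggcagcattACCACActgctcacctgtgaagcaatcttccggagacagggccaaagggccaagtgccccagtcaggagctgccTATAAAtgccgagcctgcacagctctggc
The search covered GAGGAA for PU.1, TTGCNNAA for C/EBP factors, TGTGGT for RUNX factors, AGATAA for GATA factors, GACAAGATA for EVI1 (which shares letters with the GATA search) and TATAAA for the TATA box. The CTSG window holds GAGGAA at bases -16 to -11 from the start site and its reverse complement TTCCTC at -46 to -41. The S100A9 window holds TTCCTC at -208 to -203, the reverse complement ACCACA of the RUNX letters at -103 to -98 and TATAAA at -29 to -24. Of 35116 RefSeq windows of this length, 23.6% held the PU.1 letters, 11.0% the RUNX letters and 10.7% the TATA letters, so these matches are common. The remaining letters were found in neither window, and 9.05% of all windows held the C/EBP letters, 9.17% the GATA letters and 0.0854% the EVI1 letters.

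The libraries held between 17096170 and 43502389 counts, the deepest being sh#16 replicate 2. Levels are given as CPM, counts per 1000000 counts of a library size scaled by edgeR's TMM method, and genes "rose" or "fell" where edgeR's quasi-likelihood test gave a Benjamini-Hochberg adjusted p of at most 0.01. Genes that also reached a log2 fold change of at least 2 in size are called differentially expressed genes (DEGs). MECOM fell from 505 ± 65.4 CPM in NT (SD, n = 3) to 144 ± 1.43 CPM with sh#16 and 107 ± 1.72 CPM with sh#87 (SD, n = 3 each). The NT libraries were the most unlike each other, with a coefficient of biological variation of 24.9% against 3.75% in sh#16 and 6.97% in sh#87. The share of mitochondrially encoded transcripts was 4.69% to 15.9% in the control libraries, 2.69% to 2.88% for sh#16 and 4.62% to 5.97% for sh#87. Leaving out these genes before scaling changed no call for CTSG, LYZ or S100A9, with log2 fold changes over both shRNAs of -5.86, 1.72 and 0.10.

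CTSG was nearly lost with both EVI1 shRNAs. The NT libraries held 111, 135 and 179 CTSG counts, which are 4.77, 5.85 and 5.97 CPM. The sh#16 libraries held 2, 10 and 2 counts, or 0.0803, 0.216 and 0.110 CPM. With sh#87, 1 count was found in replicate 1 and 0 in the other two libraries. All 6 knockdown libraries thus lay far below all NT libraries, and all of them except sh#16 replicate 2 were under the limit that a count of 0 allows, which is 3 counts or between 0.0648 and 0.164 CPM in these libraries. CTSG fell by 5.86 on the log2 scale over both shRNAs (SE 0.49, adjusted p = 3.18e-06, edgeR) and by 5.14 with sh#16 (SE 0.34, adjusted p = 1.57e-06, edgeR). The summed counts were 35.6-fold lower with sh#16 than in NT (95% interval 21.0 to 65.6). For sh#87 the ratio to NT was 0.00272 (95% interval 6.86e-05 to 0.0152), from 1 count against 425, and the fitted fold of this comparison is not given because it depends on the prior count. These intervals cover counting error only. Without sh#16 replicate 2, which held 10 of the 14 sh#16 counts, the sh#16 ratio went from 0.0281 to 0.0166.

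LYZ went the opposite way from CTSG. The NT libraries held 12, 13 and 22 LYZ counts, or 0.516, 0.563 and 0.734 CPM. With sh#16 the counts were 69, 131 and 57, or 2.77, 2.83 and 3.12 CPM, and with sh#87 they were 30, 21 and 22, or 1.25, 0.938 and 1.12 CPM. The 3 groups did not overlap, with sh#16 highest, sh#87 between and NT lowest. LYZ rose by 2.24 on the log2 scale with sh#16 (SE 0.19, adjusted p = 8.82e-06, edgeR), which makes it a DEG there. It rose by 0.85 with sh#87 (SE 0.21, adjusted p = 0.00475, edgeR) and by 1.72 over both shRNAs (SE 0.47, adjusted p = 0.00687, edgeR). The rise over both shRNAs did not pass when any 1 of the sh#16 or NT libraries was left out (adjusted p between 0.0116 and 0.0292, edgeR), and the rise with sh#87 did not pass without sh#87 replicate 1 (adjusted p = 0.0241) or 3 (0.0143) or without NT replicate 1 (0.0172) or 2 (0.0176). In bulk RNA a change in the share of cells that express a gene and a change in RNA per cell cannot be told apart.

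S100A9 differed in direction between the shRNAs. The NT libraries held 29, 26 and 40 S100A9 counts, or 1.25, 1.13 and 1.33 CPM. The sh#16 libraries held 38, 117 and 35 counts (1.52, 2.53 and 1.92 CPM) and the sh#87 libraries 19, 15 and 7 counts (0.790, 0.670 and 0.356 CPM). All sh#16 libraries lay above and all sh#87 libraries below the NT libraries. Neither shRNA passed the threshold against NT, with a log2 fold change of 0.70 for sh#16 (SE 0.27, adjusted p = 0.0400, edgeR) and of -1.01 for sh#87 (SE 0.31, adjusted p = 0.0140, edgeR). Over both shRNAs the knockdown libraries spread across the NT values and the log2 fold change was 0.10 (SE 0.51, adjusted p = 0.869, edgeR), a value whose sign changed in 4 of 19 alternative analyses.

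The 3 genes can be set against all 16312 genes tested, in comparisons that share the NT libraries. Over both shRNAs, LYZ rose and CTSG fell, where 30.1% of all genes rose and 29.7% fell. CTSG was the only DEG of the 3, where 5.66% of all genes were DEGs that fell. With sh#16, LYZ was a DEG that rose, as were 7.95% of all genes, and CTSG one that fell, as were 4.84%, while 29.8% and 30.2% of all genes rose and fell at the adjusted p alone. With sh#87, LYZ rose and CTSG fell, as did 34.3% and 33.6% of all genes, and CTSG was a DEG that fell, as were 7.14%. Non-overlapping libraries were common as well. Over both shRNAs they were found upward for LYZ and for 33.9% of all genes, and downward for CTSG and for 32.1%. With sh#16 they were found upward for LYZ and S100A9 and for 38.6% of all genes, and downward for CTSG and for 35.8%. With sh#87 they were found upward for LYZ and for 40.4%, and downward for CTSG and S100A9 and for 37.6%.

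All 3 genes were lower with sh#87 than with sh#16, and their libraries did not overlap, as was the case for 34.3% of all genes tested. LYZ was lower by 1.39 on the log2 scale in this direct comparison (log2 difference -1.39, SE 0.18, adjusted p = 8.45e-04, edgeR) and passed in all 19 alternatives. S100A9 was also lower (log2 difference -1.71, SE 0.30, adjusted p = 0.00288, edgeR), though it did not pass without sh#16 replicate 2 (adjusted p = 0.0158) or 3 (0.0112) or without sh#87 replicate 2 (0.0140) or 3 (0.0107). CTSG did not pass, with 1 count against 14 and a ratio of 0.0967 (95% interval 0.00229 to 0.635, adjusted p = 0.0222, edgeR), and it passed only in the alternative of voom with a weight per group (adjusted p = 0.00278). Thus 2 of the 3 were lower with sh#87 at the adjusted p, as were 9.42% of all genes. None of the 3 was a DEG between the shRNAs by edgeR, DESeq2 or limma-voom (1 was by voom with a weight per group), where 0.454% of all genes were DEGs. All 3 had an unadjusted p under 0.05 by edgeR, as had 44.6% of all genes. MECOM itself was lower with sh#87 than with sh#16 (log2 difference -0.43, adjusted p = 0.00661, edgeR), a call that held in 9 of 19 alternatives and was lost without any 1 of the sh#16 or sh#87 libraries or NT replicate 2 (adjusted p between 0.0134 and 0.0299). The part of this in the other differences was not tested.

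**Figure D1:**
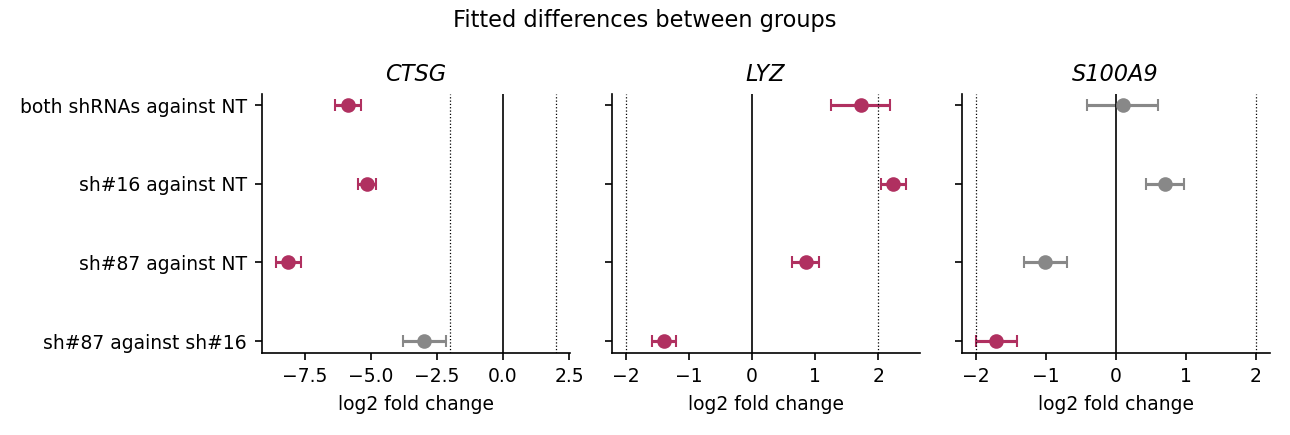
Log2 fold changes of CTSG, LYZ and S100A9 (horizontal axes, each with its own range) in 4 comparisons, with whiskers of 1 SE, from edgeR. Red points passed an adjusted p of 0.01, grey points did not, and dotted lines mark log2 fold changes of 2 in size. CTSG is far to the left in every comparison with NT, where its sh#87 values rest on 1 count and depend on the prior count, LYZ is to the right in the comparisons with NT, and S100A9 stands on either side of 0.

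CTSG went from the highest of the 3 genes to the lowest when levels were compared per length of the canonical transcript, and the mean of S100A9 stayed above that of LYZ in every group. In NT, CTSG was highest at 6.05 ± 0.722 CPM per kb, followed by S100A9 at 2.16 ± 0.182 and LYZ at 0.406 ± 0.0769 CPM per kb (SD, n = 3 each). With sh#16, S100A9 was highest at 3.47 ± 0.883 CPM per kb, LYZ followed at 1.95 ± 0.127 and CTSG was lowest at 0.148 ± 0.0782 CPM per kb. With sh#87, S100A9 at 1.06 ± 0.391 and LYZ at 0.739 ± 0.104 CPM per kb overlapped between libraries, and CTSG was lowest. All 3 genes were below the median gene, which stood at 8.38 CPM per kb in NT. CTSG was above 41.8% of the 13658 genes with a length in NT, above 3.14% with sh#16 and above 0.395% with sh#87. LYZ was above 11.1%, 23.3% and 12.9% and S100A9 above 24.7%, 30.7% and 16.0% of those genes in NT, sh#16 and sh#87.

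Of 14 further genes for azurophil granule contents, processing and packaging, 5 are in the table, of which SRGN rose over both shRNAs and CD63 and CST7 fell, where 30.1% and 29.7% of all genes rose and fell, while the median log2 fold change of the 5 was 0.16 and that of all genes 0.05. SRGN encodes serglycin, the proteoglycan that holds proteases in the granule, and was at 37.4, 38.4 and 44.3 CPM in NT and between 51.9 and 67.0 CPM in the knockdown libraries (log2 fold change 0.61, SE 0.11, adjusted p = 4.94e-04, edgeR). CD63, a tetraspanin of the granule membrane, fell from 49.1 ± 5.02 CPM in NT to 32.5 ± 1.41 CPM with sh#16 and 18.9 ± 1.36 CPM with sh#87 (SD, n = 3 each), although over both shRNAs it did not pass without NT replicate 2 (adjusted p = 0.0105, edgeR) or 3 (0.0123). CST7, which encodes the cathepsin inhibitor cystatin F and was named after its values were seen, was between 1.33 and 1.82 CPM in NT and at or below 0.125 CPM in every knockdown library. CTSC, the protease that activates the serine proteases, rose with sh#16 from 245 ± 5.55 to 302 ± 5.27 CPM (log2 fold change 0.30, SE 0.05, adjusted p = 7.33e-04, edgeR), was at 246 ± 4.78 CPM with sh#87 (SD, n = 3 each) and did not pass over both shRNAs (adjusted p = 0.195). It was named after its values were seen. CFD, the next gene to ELANE, had a log2 fold change of 0.28 (SE 0.37, adjusted p = 0.507, edgeR).

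Of 15 genes for specific and gelatinase granules, the later granule types, 3 are in the table and 2 of them, CRISP3 and MMP9, fell over both shRNAs, where 29.7% of all genes fell. CRISP3, a secreted protein of specific granules, was at 265.6 ± 35.8 CPM in NT, 35.0 ± 1.97 CPM with sh#16 and 15.0 ± 1.78 CPM with sh#87 (SD, n = 3 each), and no libraries overlapped between the groups. MMP9, the gelatinase, was between 12.8 and 26.7 CPM in NT and overlapped with sh#16, and its adjusted p of 0.00961 (edgeR, log2 fold change -0.92, SE 0.27) was over the threshold in 10 of 19 alternatives, among them without NT replicate 3 (0.0597). CYBA, a subunit of the NADPH oxidase, did not pass (log2 fold change 0.07, SE 0.32, adjusted p = 0.844, edgeR). The inhibitors of granule proteases in the table also fell. SERPINB1, an inhibitor of elastase and cathepsin G, fell from 340 ± 4.46 CPM in NT to 140 ± 5.62 CPM with sh#16 and 78.6 ± 2.88 CPM with sh#87, and SERPINB6, which also inhibits cathepsin G, fell from 160 ± 6.85 to 85.5 ± 1.34 and 67.7 ± 2.29 CPM (SD, n = 3 each). These are the 2 of 7 listed inhibitors that the table holds.

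CSF3R is not listed, but 15 of 16 genes for its ligand, its kinases and STAT factors and related receptors are, and 10 of them fell and 1 rose over both shRNAs, where 29.7% and 30.1% of all genes fell and rose. Their median log2 fold change was -1.14. STAT5A, a transcription factor activated by cytokine receptors, fell from 354 ± 41.2 CPM in NT to 57.1 ± 1.21 CPM with sh#16 and 38.6 ± 0.433 CPM with sh#87 (SD, n = 3 each; log2 fold change -2.89, SE 0.17, adjusted p = 2.93e-07, edgeR). PTPN6, the phosphatase SHP-1, which damps these receptors, fell from 215 ± 19.7 CPM to 61.7 ± 2.94 and 39.1 ± 1.53 CPM. The gene that rose was TYK2, a Janus kinase, named after its values were seen (log2 fold change 1.12, SE 0.21, adjusted p = 7.60e-04, edgeR). STAT3, the main STAT of G-CSF signalling, did not pass (log2 fold change 0.12, SE 0.08, adjusted p = 0.185, edgeR). Without NT replicate 3 the count of genes that rose was 3.

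CD14 is not listed either, and of 13 genes of the LPS receptor and its signalling 9 are, of which 7 fell over both shRNAs (6 with sh#16 and 8 with sh#87), where 29.7%, 30.2% and 33.6% of all genes fell in these comparisons. Their median log2 fold change was -1.64 over both shRNAs. The receptor TLR4 and its partner LY96 are not listed. LY86, which encodes the partner MD-1 of the TLR4-like receptor CD180, was at a median of 5.20 CPM in NT, at or below 0.151 CPM with sh#16 and at or below 0.102 CPM with sh#87, so that sh#87 was under the limit of 3 counts in every library. IRAK1, a kinase of this pathway, fell from 73.8 ± 23.4 CPM in NT to 21.9 ± 0.550 and 17.3 ± 1.14 CPM with sh#16 and sh#87 (SD, n = 3 each). The LPS adaptor gene TICAM1 did not pass (log2 fold change 0.20, SE 0.20, adjusted p = 0.372, edgeR).

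Markers of phagocytes and monocytes belong to the later maturation steps. Of 22 listed, 12 are in the table, of which 4 rose, among them FCGR2A, ITGAX and ITGAM, and 4 fell, among them CD36, MNDA and NCF4, over both shRNAs, shares near the 30.1% and 29.7% of all genes. FCGR2A, an activating receptor for IgG, rose from 10.3 ± 2.27 CPM in NT to 58.0 ± 0.886 CPM with sh#16 and 39.0 ± 1.73 CPM with sh#87 (SD, n = 3 each; log2 fold change 2.24, SE 0.22, adjusted p = 1.06e-05, edgeR). CD36, a scavenger receptor of monocytes, fell from 8.48 ± 1.18 CPM to 0.547 ± 0.173 and 0.450 ± 0.183 CPM. The integrin genes ITGAM and ITGAX, named with MNDA and NCF4 after their values were seen, had log2 fold changes of 1.02 and 1.95. MNDA, a nuclear antigen of myeloid cells, was between 1.17 and 2.24 CPM in NT and at or below 0.161 CPM in the knockdown libraries. NCF4, a subunit of the NADPH oxidase, had a log2 fold change of -1.31. Values of NCF1 are uncertain because it has near-identical pseudogenes.

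Among transcription factors that control granule genes, 7 of 11 are in the table, and SPI1, MYB, GFI1 and CBFB fell over both shRNAs, where 29.7% of all genes fell. SPI1 encodes PU.1, whose recognition letters were marked above, and fell from 75.7 ± 12.1 CPM in NT to 18.7 ± 0.404 CPM with sh#16 and 9.85 ± 1.25 CPM with sh#87 (SD, n = 3 each; log2 fold change -2.40, SE 0.26, adjusted p = 1.71e-05, edgeR). MYB, a factor of immature blood cells, fell from 177 ± 42.4 CPM to 35.6 ± 0.889 and 28.9 ± 0.914 CPM. GFI1, a repressor needed for neutrophil development, fell from 88.8 ± 9.20 CPM to 53.2 ± 1.92 and 38.5 ± 1.47 CPM, and CBFB, the partner of RUNX factors, which was named after its value was seen, had a log2 fold change of -0.46. CEBPA, the factor that starts granulocyte development, was at 22.0, 32.4 and 59.4 CPM in NT, between 69.3 and 78.1 CPM with sh#16 and between 46.6 and 53.9 CPM with sh#87. It did not pass over both shRNAs (log2 fold change 0.71, SE 0.30, adjusted p = 0.0507, edgeR) but did without NT replicate 3, the highest NT library (1.17, adjusted p = 0.00236). CEBPB, a related factor of monocytes and of emergency granulocyte production, which was named after its values were seen, rose with sh#16 from 21.3 ± 6.56 to 43.9 ± 1.76 CPM (SD, n = 3 each; log2 fold change 1.04, SE 0.19, adjusted p = 8.07e-04, edgeR). It did not pass with sh#87 (28.9 ± 2.66 CPM, adjusted p = 0.0546) or over both shRNAs (log2 fold change 0.77, SE 0.23, adjusted p = 0.0126). CEBPE, the factor of later granules, is not listed in the table.

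**Figure D2:**
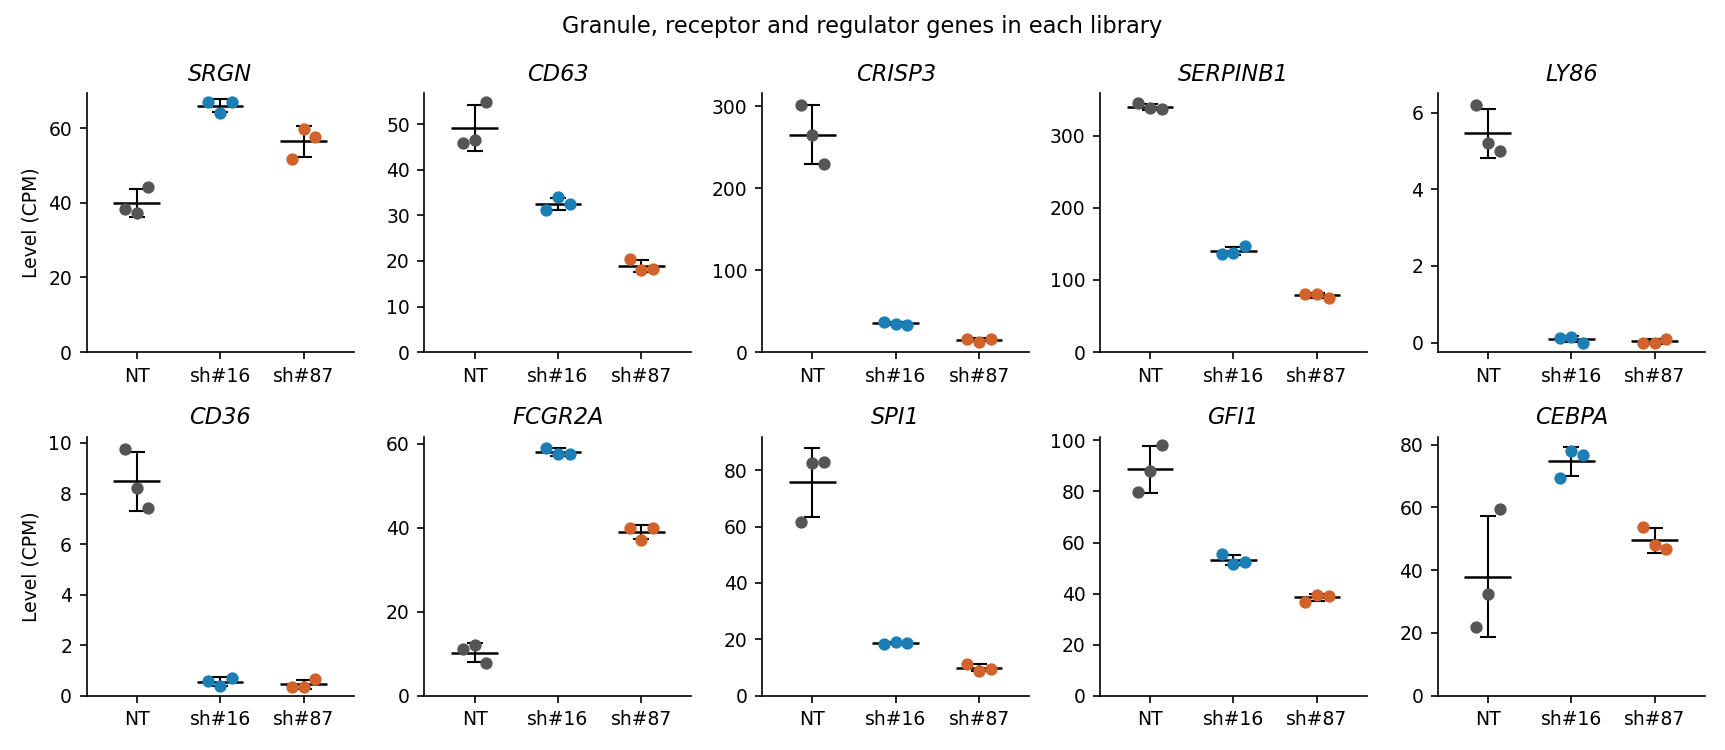
Levels in CPM (vertical axes, each with its own range) of 10 granule, receptor and regulator genes in the NT, sh#16 and sh#87 libraries. The axes start at 0, except that of LY86, which starts below 0. Points are libraries, long bars are means and whiskers are SDs of 3 libraries. SRGN and FCGR2A are higher and CD63, CRISP3, SERPINB1, LY86, CD36, SPI1 and GFI1 lower in every knockdown library than in every NT library, and CEBPA in NT spans from 22.0 to 59.4 CPM.

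The labelled cell type was checked against markers of immature myeloid cells, of which 7 of 8 are in the table, and all 7 were over the limit of 3 counts in the groups. CD34, the marker of stem and progenitor cells, was at 731 ± 55.3 CPM in NT, 116 ± 2.11 CPM with sh#16 and 42.4 ± 1.11 CPM with sh#87, and PTPRC, the pan-leukocyte antigen CD45, at 855 ± 37.2, 142 ± 5.67 and between 96.4 and 102.6 CPM (SD, n = 3 each). Both fell over both shRNAs, as did KIT, and the other 4 of the list did not pass. With sh#87, 6 of the 7 fell, where 33.6% of all genes fell, and with sh#16, 3 fell and 1 rose, where 30.2% and 29.8% of all genes did. The gene that rose with sh#16 and fell with sh#87 was FLT3, a growth factor receptor gene of progenitors, named after its values were seen (log2 fold changes 0.41 and -0.52). The myeloid antigen gene CD33 was at 42.7 ± 2.35 CPM in NT and 36.6 ± 2.05 CPM over both shRNAs (SD, n = 3 and n = 6).

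Markers of other cell types were also looked up, and their part in the results was not tested. Over both shRNAs 30.1% of all genes rose and 29.7% fell, and with sh#87 33.6% fell, so changes of single markers were common. Of 10 erythroid genes only EPOR is in the table, and it rose from between 1.46 and 2.87 CPM in NT to between 9.76 and 14.5 CPM in the knockdown libraries, while no globin gene is listed. Of 8 megakaryocyte genes 4 are in the table, of which VWF and ITGA2B fell and ITGB3 rose, and their summed level was between 289.7 and 590.0 CPM in NT, 103.6 and 109.0 CPM with sh#16 and 53.9 and 58.5 CPM with sh#87. Of 5 B cell genes 3 are in the table, of which CD79A and PAX5 fell, with a sum between 21.1 and 48.5 CPM in NT and between 2.64 and 6.18 CPM in the knockdown libraries. Of 6 T and NK cell genes 3 are in the table, CD3E fell and CD3G rose, with a sum between 10.3 and 11.9 CPM in NT and between 4.42 and 8.31 CPM in the knockdown libraries. CD3G rose from no more than 4 counts in any NT library. Of 9 genes of mast cells, basophils and eosinophils 2 are in the table and 1 was tested, CPA3, which did not pass over both shRNAs (log2 fold change -1.09, SE 0.50, adjusted p = 0.0692, edgeR) and fell with sh#87 (log2 fold change -2.29). ITGA2B, ITGB3, CD3G and CPA3 were named after their values were seen.

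The genes most like CTSG over the 9 libraries, by the Euclidean distance of centred log2 CPM profiles among 16311 other genes, were CASS4 (distance 0.739), KCNE3 (1.04) and PRSS2 (1.08). CASS4, an adaptor protein gene of the Cas family, was between 106.5 and 112.8 CPM in NT, 3.62 ± 0.393 CPM with sh#16 and 1.67 ± 0.134 CPM with sh#87 (SD, n = 3 each). KCNE3, a potassium channel subunit gene, was at 19.8 ± 2.01, 0.710 ± 0.0264 and 0.192 ± 0.0789 CPM. PRSS2, a trypsinogen gene with near-identical copies whose counts are uncertain for that reason, was between 5.50 and 6.59 CPM in NT, 0.219 and 0.281 CPM with sh#16 and 0 and 0.0832 CPM with sh#87. Each of these genes was higher in all NT libraries than in all knockdown libraries and was lowest with sh#87, as CTSG was. This likeness was fixed by choosing the genes for it over the same 9 libraries. The neighbours of CTSG on the chromosome, CMA1 and GZMH, are not listed in the table.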

How the data were processed

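RNA of HNT34 cells was sequenced from polyA-selected, strand-specific libraries, 3 each for NT, sh#16 and sh#87. Groups came from the sample titles; the shRNA field of the sh#87 libraries reads 18, while titles and methods read 87. Estimated counts per gene were deposited by the authors as 1 table, whose header names salmon output, while the methods name STAR gene counts on GRCh38; FastQC 1.3 stands in the submitters' processing notes. Its header is offset by 1 column, and the 9 names were assigned to the value columns in order. Values were whole numbers, with a lowest gene total of 34 counts.

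Counts were TMM-scaled, filtered by filterByExpr (16312 genes) and tested with edgeR 4.0.16 (R 4.3.3), with 2 groups for both shRNAs against NT and 3 groups otherwise. The quasi-likelihood test was used with edgeR's default prior count and Benjamini-Hochberg adjustment over all genes. A prior count of 2 was used only for the log2 CPM of the profile distances and of the comparison of same-numbered libraries. Depth was 17096170 to 43502389 counts. The model was tested on simulated data. Ratios of summed counts have exact binomial 95% intervals. Replicates differed by more than sampling noise.

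Members, lists and tests were chosen with earlier results of these data known. Named genes are the members, MECOM, the 2 largest changes per list with at least 5 CPM in the higher group, CEBPA, CEBPE, SPI1 and GFI1, neighbours of the protease genes (CFD, CMA1, GZMH and, not listed here, PLPPR3) and the 3 profiles nearest to that of CTSG; other genes are marked as named after their values were seen, and some genes of the lists are counted but not reported here. Another symbol searched for S100A8 and S100A9, MIF, is in the table as a gene of its own and was not used. Transcript lengths came from GENCODE v44 on GRCh37. Alternatives were DESeq2 1.42.0, limma-voom (limma 3.58.1), other normalizations and filters, a replicate block, another grouping, removal of mitochondrial genes and each library left out, and, added after seeing the data, voom with a weight per group and total counts as library sizes. Figures used Python 3.11.15 and matplotlib 3.10.9.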

Additional observations from a re-analysis of the deposited data

Results flagged for a closer look

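Of 33 measures compared over the 6 knockdown libraries, 2 had an end value whose gap to the nearest other library, as a share of the range, was over the limit of 0.625, which chance alone does in about 1 of 20 such measures. The total counts had a share of 0.773 because of the deep sh#16 replicate 2, and PAX5 had a share of 0.677 because it stood at 1.95 CPM in the same library against 1.21 to 1.44 CPM in the others. CTSG, LYZ and S100A9 showed no such library. The 6 libraries pool both shRNAs, so a difference between the shRNAs widens the range, and an odd library within 1 group can be missed. The rate of 1 in 20 supposes no such difference. In sh#16 replicate 2, CTSG stood at 0.216 CPM, against 0.0803 and 0.110 CPM in sh#16 replicates 1 and 3.

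Of 32 genes tested directly between the shRNAs, 16 differed at an adjusted p of at most 0.01 (edgeR's quasi-likelihood test). All 16 had a lower level in sh#87, where 9.42% of all genes were lower. The 32 genes include CASS4, KCNE3 and PRSS2, chosen for profiles like that of CTSG, and genes chosen for large changes over both shRNAs. Their share is therefore not comparable with that of all genes. The call held in 9 of 19 alternatives for MECOM, 9 of 18 for PRSS2, 12 of 19 for GFI1, 13 of 19 for SERPINB6 and 14 of 19 for S100A9. The log2 differences of sh#87 from sh#16 were -1.39 for LYZ, -1.71 for S100A9 and -0.43 for MECOM. Among granule genes and inhibitors they were -0.78 for CD63, -1.22 for CRISP3, -0.83 for SERPINB1 and -0.34 for SERPINB6. Signalling and regulator genes differed by -0.57 for STAT5A, -0.66 for PTPN6, -0.93 for SPI1 and -0.47 for GFI1, and identity markers by -1.46 for CD34 and -0.51 for PTPRC. The genes with profiles like CTSG differed by -1.13 for CASS4, -1.84 for KCNE3 and -2.33 for PRSS2, and the last rests on at most 2 counts in any sh#87 library and depends on the prior count.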

How the results depend on the processing

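The fall of CTSG in each comparison with NT and the rise of LYZ with sh#16 passed in all 19 alternatives. Over both shRNAs, the number of the 3 genes past the adjusted p went from 2 to 1 with limma-voom, with the replicate block and with voom and a weight per group, and was 1 to 2 with each library left out, since LYZ did not pass. With sh#87 it went from 2 to 1 with DESeq2, voom with a weight per group and another grouping, and was 1 to 2 with each library left out. Between the shRNAs it went from 2 to 1 with the replicate block, and was 1 to 2 with each library left out, since S100A9 did not pass (block: adjusted p = 0.0108). With voom and a weight per group it was 3, since CTSG passed, and CTSG was a DEG there in place of 0 genes. The log2 fold change of S100A9 over both shRNAs changed sign with limma-voom (-0.11), another grouping (-0.15) and without sh#16 replicate 2 (-0.24) or 3 (-0.019), ranging from -0.24 to 0.29 with each library left out, and that of CFD without NT replicate 3 (-0.083), ranging up to 0.61. Of the lists over both shRNAs, specific and gelatinase granules had 1 gene lower in place of 2 in 10 alternatives, other azurophil genes 1 in place of 2 in 3, and with another grouping immature markers had 5 in place of 3 and mast cell genes 1 in place of 0. The count of granule-gene regulators that rose was 1 in place of 0 with DESeq2, upper-quartile normalization, voom with a weight per group, another grouping and without sh#87 replicate 3, and 2 without NT replicate 3. The cause was not tested. For same-numbered libraries of different groups, the deviations of log2 CPM from the group mean correlated between -0.14 and 0.08. These values gave no sign that the numbers pair the libraries, though they cannot exclude it. The low counts of these genes limit what can be seen, with 41 S100A9 and 47 LYZ counts in the lowest groups.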
